A study of Drosophila melanogaster with 15 samples.

Results

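Trypsins are secreted serine proteases that cleave dietary proteins, and in the *Drosophila* midgut they are produced mainly by enterocytes, the absorptive and secretory cells of the gut epithelium. They are made as inactive precursors that are activated by proteolysis in the gut lumen. Many of the fly trypsin genes carry Greek-letter names and lie side by side on the right arm of the second chromosome. Here, the transcript levels of *alphaTry*, *betaTry*, *gammaTry*, *deltaTry*, *epsilonTry*, *zetaTry*, *etaTry*, *thetaTry*, *iotaTry* and *kappaTry* were followed in the larval midgut. The members were taken by name, and 9 of the 10 were found among the 12133 entries of the expression table. *epsilonTry* was not analysed here.

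The midguts came from w1118 larvae, a white-eyed laboratory strain that is commonly used as a control. All larvae were raised on a diet of yeast only, and their sex was not determined. Midguts were dissected 2, 3 and 4 days after egg laying, which corresponds to the early L2, late L2 and early L3 stages (L2 and L3 are successive larval instars), and each stage has 5 biological replicates. A replicate pooled 60, 30 and 10 midguts in these stages, so stage differs together with the number of organs per pool and with age. Levels are given in CPM, the reads of a gene scaled to a common library total, and library totals ranged from 23981806 to 33902298 reads. Changes between stages were tested with limma over the 9787 entries that reached 0.5 CPM in 1 library or more, which all 9 members did, and p-values were adjusted over all of these entries. Risen and fallen are used for transcripts with an adjusted p below 0.05 whose log2 fold change reached 0.5 in either direction. Because whole organs were sequenced in bulk, a smaller number of producing cells cannot be told apart from less transcript per cell.

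The 9 measured members are intronless genes of 810 to 1071 bases. In the BDGP6 annotation (Ensembl release 115), the listed members lie on chromosome 2R. They run from position 11337797, at *kappaTry*, to position 11357537, at *iotaTry*, and span 19.7 kb. A further trypsin gene of the cluster, *lambdaTry*, ends at position 11337791, just outside *kappaTry*, and was not analysed here. The order of the listed members along the chromosome is *kappaTry*, *zetaTry*, *etaTry*, *thetaTry*, *alphaTry*, *epsilonTry*, *betaTry*, *gammaTry*, *deltaTry* and *iotaTry*. *betaTry*, *deltaTry* and *iotaTry* lie on the plus strand and the other members on the minus strand. The annotation places 15 entries from *kappaTry* to *iotaTry*, a count that includes insertions of the transposable element *INE-1*. Among them are the trypsin genes *CG30031* and *CG30025*, both between *gammaTry* and *deltaTry*. *gammaTry*, *deltaTry*, *CG30025* and *CG30031* are all 810 to 811 bases long and are known as near-identical copies. How reads shared by these copies were assigned is not given in the sources used here, so the division of reads among them is uncertain. The end of *deltaTry* also overlaps *CG13202* on the opposite strand, which was measured at 0.514 CPM or less as a stage mean.

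**Figure D1:**
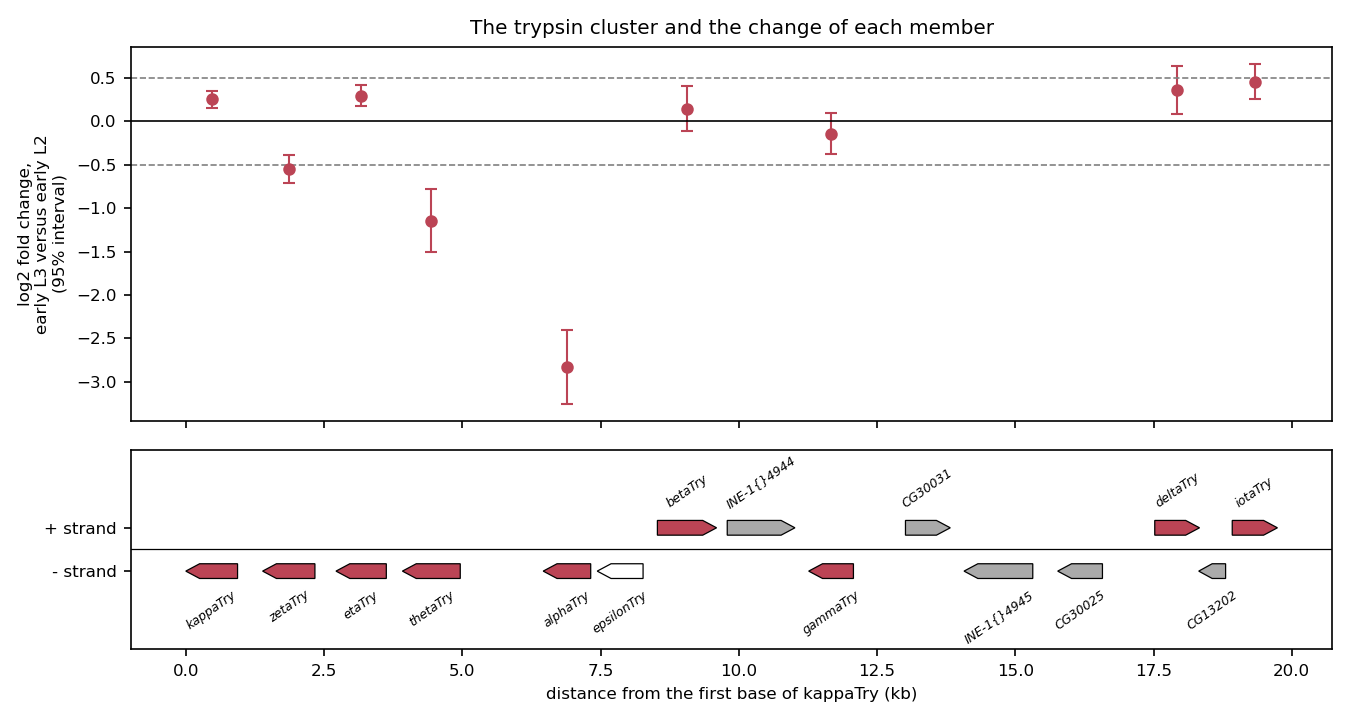
The trypsin cluster from *kappaTry* to *iotaTry* (lower panel) and the log2 fold change of each member from early L2 to early L3 (upper panel). Distance is in kb from the first base of *kappaTry*, and arrows point in the direction of transcription. Measured members are red, *epsilonTry* is white, and other annotated genes and insertions of the transposable element *INE-1* are grey. Bars are 95% intervals from limma, and dashed lines mark the minimum change of 0.5. *alphaTry*, *thetaTry* and *zetaTry* lie below the lower dashed line, and *etaTry*, which stands between *zetaTry* and *thetaTry* on the chromosome, lies above 0 at 0.30.

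The organ could be recognised in all libraries. The 4 midgut markers *GATAe*, *mex1*, *Myo31DF* and *nub* were all present, and their summed level lay between 812 and 956 CPM in the 15 libraries. Of the salivary gland markers only *Sgs4* was measured (1 of 6), and of the Malpighian tubule markers only *CapaR* (1 of 2). They did not exceed 0.102 and 0.432 CPM in any library. Single genes at such levels do not show that these tissues were absent. Over all tested entries, principal component 1 carried 59.1% of the variance and ordered the stages, and on it late L2 replicate 4 (-5.63) lay closer to early L3 than the other late L2 libraries (-24.6 to -16.6). Early L3 replicate 1 (31.6) lay closer to late L2 than the other early L3 libraries (45.1 to 59.4). The counts of members that rose or fell between stages were the same without these 2 libraries.

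*gammaTry* and *deltaTry* were by far the most abundant members. On the scale of CPM per kb of transcript, which allows levels of different genes to be compared, *gammaTry* had 5591 ± 677 in early L2 (SD, n = 5), against 4170.5 ± 439 in late L2 and 5085 ± 790 in early L3. The level of *deltaTry* per kb was 4529 ± 775, 4122 ± 205 and 5843 ± 1133 in the same order. Their ranges overlapped in every stage, and *deltaTry* in turn lay above the next member in every library of all 3 stages. The other 7 members lay between 99.0 and 697 CPM per kb as stage means.

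The order of these 7 members changed with the stage. In early L2, *alphaTry* was the third most abundant member at 697 ± 94.3 CPM per kb, followed by *thetaTry* at 463 ± 66.3, and the ranges of the pair overlapped. In late L2 the most abundant member after *gammaTry* and *deltaTry* was *kappaTry* at 339 ± 6.59 CPM per kb, which overlapped with *zetaTry* at 326 ± 31.7. In early L3, *alphaTry* was the least abundant member at 99.0 ± 23.7 CPM per kb, and its range overlapped with that of *iotaTry* at 145 ± 12.3. From *kappaTry* downwards, each member in early L3 overlapped with the next, so that neighbours in that order cannot be separated by their replicates.

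**Figure D2:**
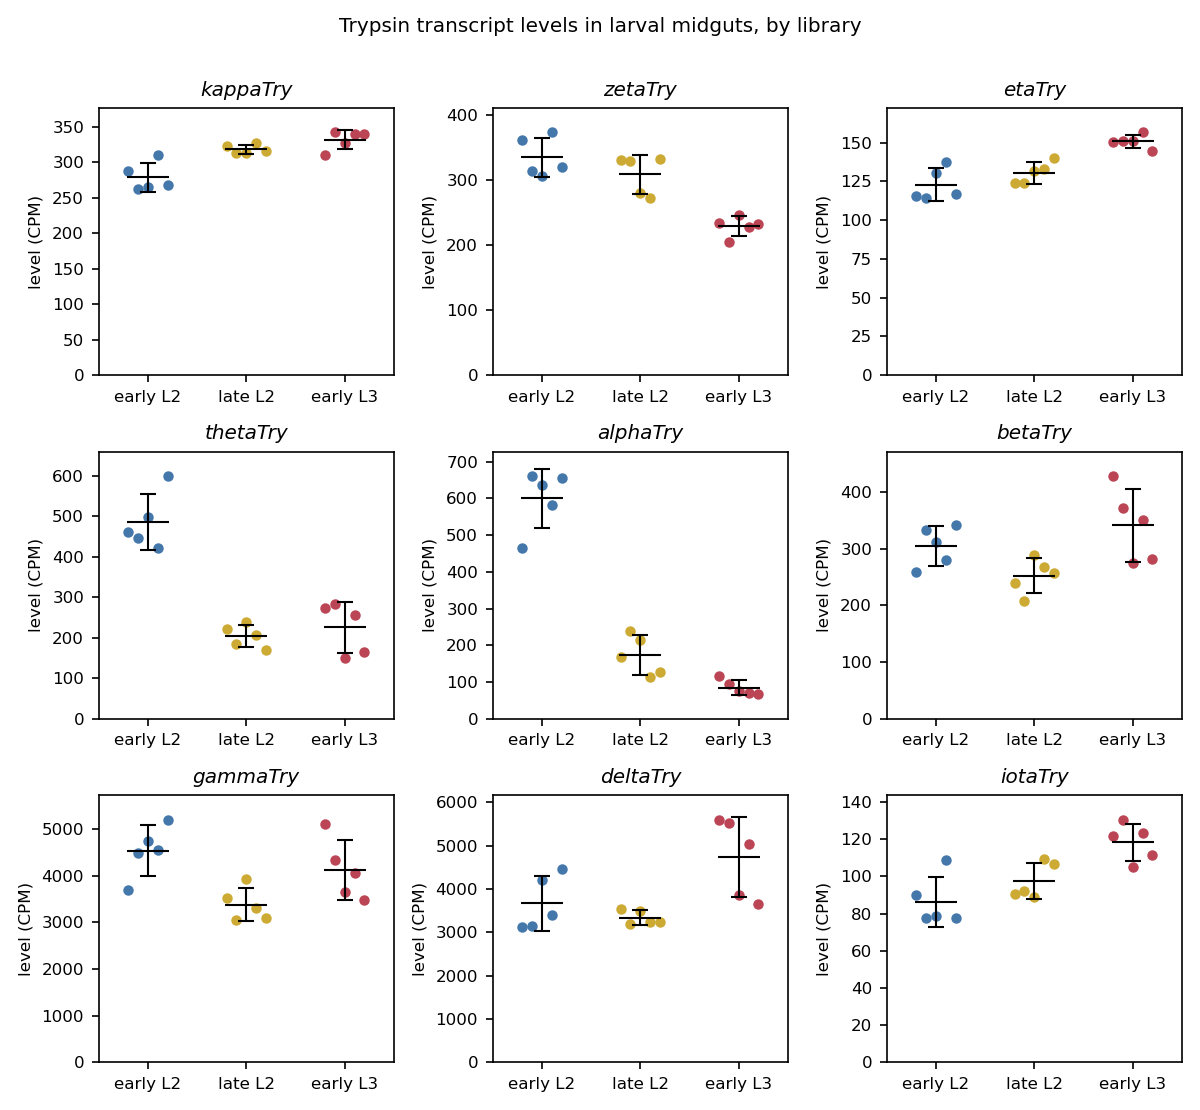
Level of each measured trypsin transcript (CPM, y axis from 0) in the 15 midgut libraries, by stage; each point is a library, drawn from replicate 1 at the left to replicate 5 at the right of its stage, and the bars give the mean and SD of 5 replicates. *alphaTry* and *thetaTry* lie below their early L2 range in late L2 and *kappaTry* lies above it, *zetaTry* leaves its late L2 range in early L3, and *etaTry* and *deltaTry* lie above their late L2 range in early L3.

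*alphaTry* fell throughout the period. It was measured at 465, 660.4, 635, 582 and 654 CPM in replicates 1 to 5 of early L2. In late L2 the replicates had 169, 239.7, 216, 113 and 126 CPM. In early L3 they had 116, 95.4, 76.7, 69.6 and 68.0 CPM. All late L2 libraries lay below all early L2 libraries, whereas the late L2 and early L3 ranges touched, since early L3 replicate 1 exceeded late L2 replicate 4. The stage mean was 7.04 times lower in early L3 than in early L2, with a log2 fold change of -2.83 (95% interval -3.25 to -2.40, adjusted p = 2.22e-08, limma). The interval from early to late L2 gave -1.84 ± 0.20 (SE, adjusted p = 1.23e-05) and that from late L2 to early L3 gave -0.99 ± 0.20 (adjusted p = 0.000609). The replicates of late L2 spread widely, with a coefficient of variation of 31.8%. With late L2 replicate 4 and early L3 replicate 1 left out, the change of *alphaTry* from late L2 to early L3 was -1.24 (adjusted p = 5.24e-05, limma). These were its lowest late L2 and its highest early L3 library, so leaving them out could only enlarge the fall.

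*thetaTry* fell during the L2 stage. It had 460.3, 446, 498, 422 and 599 CPM in the early L2 replicates and 221, 184, 239.6, 206 and 170.4 CPM in the late L2 replicates, with no overlap. The early L3 replicates had 274, 282, 150.3, 256 and 165 CPM, on both sides of the late L2 range. Its mean was 2.37 times lower in late L2 than in early L2 (log2 fold change -1.24 ± 0.17, adjusted p = 8.78e-05). From late L2 to early L3 the log2 fold change of *thetaTry* was 0.10, with an interval from -0.26 to 0.46 (adjusted p = 0.636). The change of *thetaTry* in the second interval was more positive than in the first by 1.35 on the log2 scale (95% interval 0.72 to 1.97, adjusted p = 0.00233 for the difference between the changes). For *alphaTry* the same difference was 0.85 and did not pass the threshold (adjusted p = 0.0662), but it passed with TMM (0.96, adjusted p = 0.0332), median-ratio scaling (1.00, adjusted p = 0.0284), quantile normalization (0.94, adjusted p = 0.0387) and DESeq2 (0.93, adjusted p = 0.0151). It also passed without early L2 replicate 1 (0.94, adjusted p = 0.0458), late L2 replicate 2 (1.12, adjusted p = 0.0220) or late L2 replicate 3 (1.04, adjusted p = 0.0396).

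*zetaTry* was lower in early L3 than in both L2 stages. The replicates of early L2 had 361, 313, 306, 373 and 319 CPM and those of late L2 had 331, 329, 279, 272 and 331 CPM. In early L3 they had 233, 204, 246, 228 and 232 CPM, below every L2 library. Relative to early L2, *zetaTry* fell by 0.55 on the log2 scale (SE 0.07, adjusted p = 1.22e-05). Relative to late L2 its log2 fold change was -0.43 (adjusted p = 0.000173), which is under the minimum change of 0.5 required here. The fall from early L2 also came under this minimum when libraries were scaled by other methods, as given with the counts of calls.

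*gammaTry* had its lowest mean in late L2. Its replicates had 3686, 4476, 4745, 4542 and 5195 CPM in early L2, 3523, 3052, 3916, 3312 and 3087 CPM in late L2, and 5094, 4332, 3649, 4046 and 3475 CPM in early L3. The ranges of neighbouring stages overlapped. The log2 fold change of *gammaTry* was -0.42 from early to late L2 (adjusted p = 0.0112) and 0.28 from late L2 to early L3 (adjusted p = 0.0451), both under the minimum change. Between early L2 and early L3 it was -0.14, with an interval from -0.38 to 0.10 (adjusted p = 0.280).

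*deltaTry* had its highest mean in early L3. In early L2 its replicates had 3125, 3146, 4215, 3393 and 4464 CPM, and in late L2 they had 3545, 3195, 3491, 3230.3 and 3230.1 CPM. In early L3 they had 5598, 5520.5, 3854, 5028 and 3663 CPM, which was above every late L2 library but overlapped with early L2. The log2 fold change of *deltaTry* from late L2 to early L3 was 0.48 (95% interval 0.20 to 0.76, adjusted p = 0.00561), just under the minimum change, and it passed that minimum without late L2 replicate 1 (0.50), early L3 replicate 3 (0.55) or early L3 replicate 5 (0.57). From early to late L2 its log2 fold change was -0.12 (adjusted p = 0.550), and from early L2 to early L3 it was 0.36 (adjusted p = 0.0243).

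The balance between these near-identical copies shifted with the stage. The level of *deltaTry* per level of *gammaTry* was 0.848, 0.703, 0.888, 0.747 and 0.859 in the early L2 replicates. In late L2 this ratio was 1.01, 1.05, 0.892, 0.975 and 1.05. In early L3 it was 1.10, 1.27, 1.06, 1.24 and 1.05. The stages did not overlap, and the means were 0.809 ± 0.0797, 0.993 ± 0.0642 and 1.15 ± 0.105 (SD, n = 5). Each pair of stages gave p = 0.00794 in a 2-sided exact permutation test, the smallest value that 252 arrangements of 5 against 5 libraries can give, and the adjusted p over the 3 pairs was the same. This ratio does not depend on how libraries are scaled, but it does depend on how reads common to the copies were divided between them. It was chosen after the values had been seen. The sum of both copies was 8197 ± 1122, 6717 ± 503 and 8852 ± 1516 CPM in the order of the stages. As a single entry in limma, the summed *gammaTry* and *deltaTry* had a log2 fold change of 0.38 from late L2 to early L3 (adjusted p = 0.0128) and of 0.10 from early L2 to early L3 (adjusted p = 0.459).

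*betaTry* had 259, 332, 311, 281 and 341 CPM in the early L2 replicates, against 239.8, 207, 289, 268 and 257 CPM in late L2, and 428, 371, 274, 350.0 and 281 CPM in early L3. Each pair of stages overlapped. Its log2 fold change was 0.42 from late L2 to early L3 (adjusted p = 0.00822), under the minimum change, and 0.15 between early L2 and early L3 (adjusted p = 0.300).

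*kappaTry*, *etaTry* and *iotaTry* had their highest stage means in early L3. *kappaTry* ranged from 262 to 310 CPM in early L2, from 313 to 327 CPM in late L2 and from 311 to 342 CPM in early L3. Its late L2 libraries all lay above early L2, with a log2 fold change of 0.19 (adjusted p = 0.00666), under the minimum change. *etaTry* ranged from 114 to 138 CPM, from 124 to 140.3 CPM and from 144 to 156 CPM in the same stages. For *iotaTry* the ranges were 77.5 to 109 CPM, 88.7 to 109 CPM and 105 to 130.5 CPM. None of the trio rose by the minimum change between early L2 and early L3, with log2 fold changes of 0.25 for *kappaTry* (adjusted p = 0.000215), 0.30 for *etaTry* (adjusted p = 0.000206) and 0.46 for *iotaTry* (adjusted p = 0.000568). The early L3 libraries did not overlap with early L2 for *kappaTry* and *etaTry*. *iotaTry* passed the minimum without early L2 replicate 4 (0.54) or early L3 replicate 3 (0.50).

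**Figure D3:**
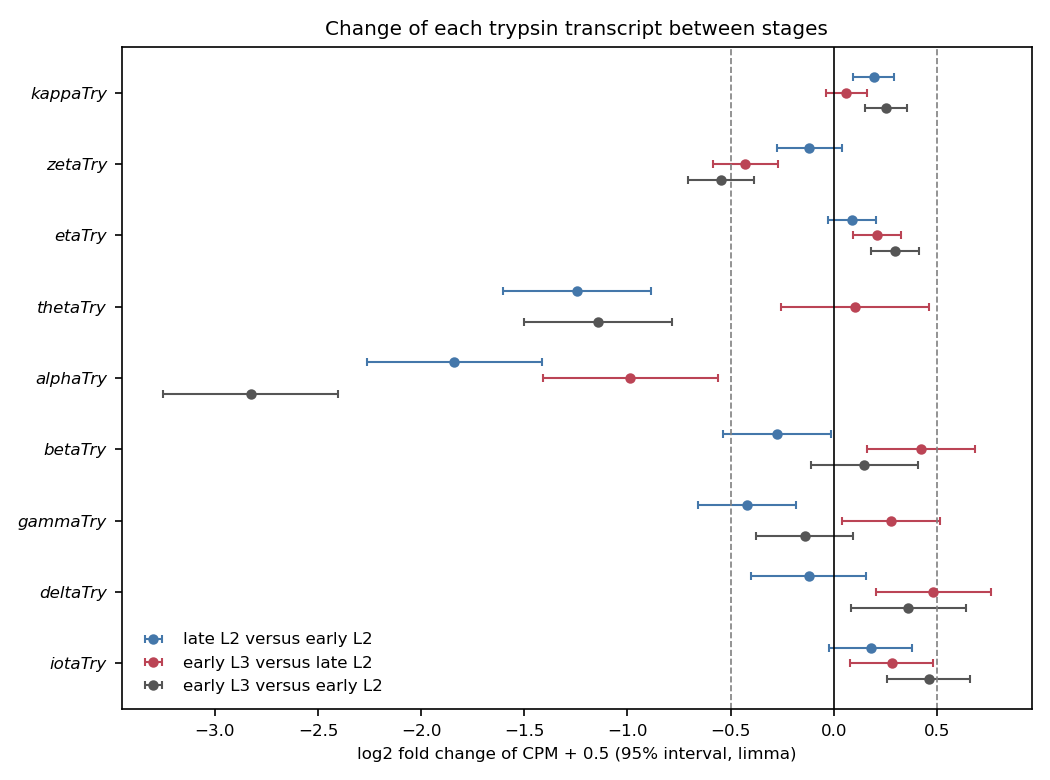
Log2 fold change of CPM + 0.5 (x axis) of each measured trypsin transcript in the order of the chromosome, for the 3 comparisons of stages; points are limma estimates over 5 replicates per stage, bars are 95% intervals and dashed lines mark the minimum change of 0.5. *alphaTry* moves furthest, from -0.99 to -2.83, and *thetaTry*, *betaTry*, *gammaTry* and *deltaTry* have estimates below 0 in the first interval and above 0 in the second.

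From early to late L2, 2 of the 9 members fell, *alphaTry* and *thetaTry*, and 0 rose, where 6.51% of the 9787 tested entries fell and 3.38% rose. From late L2 to early L3, 1 of 9 fell, *alphaTry*, and 0 rose, where 18.7% of all entries fell and 6.45% rose. Between early L2 and early L3, 3 of 9 fell, with *zetaTry* added, and 0 rose, where 24.3% of all entries fell and 9.86% rose. The members' counts were not tested against those of all entries. The libraries of the compared stages did not overlap for 3, 3 and 5 members in these comparisons, where 18.4%, 40.0% and 48.4% of all entries did not overlap. By adjusted p alone, without a minimum change, limma called 7 members between late L2 and early L3, where it called 54.0% of all entries. Of these, 5 had higher levels in early L3 (*deltaTry*, *betaTry*, *iotaTry*, *gammaTry* and *etaTry*), where 17.0% of all entries did, and *alphaTry* and *zetaTry* had lower levels. The median log2 fold change of the members was 0.21 in this comparison, against -0.11 for all entries.

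Whether members counted as having risen depended on the scale of the libraries. In CPM, the median entry changed by -0.11 from late L2 to early L3 and by -0.15 from early L2 to early L3, and with TMM scaling these medians were 0.01 and -0.01. Relative to the median entry, the log2 fold change into early L3 from late L2 was 0.59 for *deltaTry*, 0.53 for *betaTry*, 0.39 for *iotaTry*, 0.39 for *gammaTry* and -0.88 for *alphaTry*. With TMM or median-ratio scaling, and with edgeR or DESeq2 on the recovered reads, *betaTry* and *deltaTry* rose from late L2 to early L3 (0.56 and 0.62 with TMM), and *deltaTry* and *iotaTry* rose from early L2 to early L3 (0.52 and 0.62). With these settings *zetaTry* no longer passed the minimum change (-0.39 with TMM), and the estimate of *gammaTry* between early L2 and early L3 turned from -0.14 to 0.02. With quantile normalization *betaTry*, *deltaTry* and *iotaTry* did not pass the minimum. The falls of *alphaTry* and *thetaTry* were called with all of these scalings.

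The change in the second interval was called as more positive than in the first for 4 of 9 members, where 6.50% of all entries were called in this direction. Beside *thetaTry*, these were *gammaTry* (0.70, adjusted p = 0.0103), *betaTry* (0.70, adjusted p = 0.0173) and *deltaTry* (0.60, adjusted p = 0.0492). With TMM, median-ratio scaling and DESeq2, *alphaTry* was called as well, which gave 5 of 9. The share of all entries called with these settings is not given here. With quantile normalization *gammaTry* (0.49, adjusted p = 0.0538) and *deltaTry* (0.46, adjusted p = 0.0910) were lost. *thetaTry*, *gammaTry*, *betaTry* and *deltaTry* had their lowest stage mean in late L2, whose libraries enter both changes. The result for *betaTry* was lost without late L2 replicate 2 (0.56, adjusted p = 0.0629). That for *deltaTry* was lost in 11 of the 15 fits that left out a single library (adjusted p up to 0.102), and it was kept without early L2 replicate 1 or 2 or early L3 replicate 3 or 5.

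The members together took up about the same part of the library at both ends of the period, in a different composition. The 9 members accounted for 0.885, 0.983, 1.12, 1.01 and 1.20% of the reads of the early L2 replicates. In late L2 they accounted for 0.857, 0.774, 0.896, 0.797 and 0.776%, and in early L3 for 1.23, 1.14, 0.883, 1.06 and 0.848%. The means were 1.04% ± 0.123, 0.820% ± 0.0542 and 1.03% ± 0.165 (SD, n = 5), and neighbouring stages overlapped. The adjusted p of the exact permutation test was 0.0476 from early to late L2, 0.0595 from late L2 to early L3 and 0.929 between early L2 and early L3. The first result was lost in 8 of the 15 fits that left out a library (adjusted p 0.0595 to 0.0952): early L2 replicates 2 to 5 and late L2 replicates 1, 2, 4 and 5. The second passed without late L2 replicate 3 or early L3 replicate 5 (adjusted p = 0.0476 for each), and with median-ratio scaling (adjusted p = 0.0238).

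Within the trypsin reads, *gammaTry* and *deltaTry* together made up 78.6% ± 1.49, 81.9% ± 0.796 and 85.5% ± 1.02 in the order of the stages. No library of any stage overlapped with another stage (exact permutation p = 0.00794 for each pair). *alphaTry* went from 5.77% ± 0.567 of the trypsin reads to 2.10% ± 0.670 and 0.821% ± 0.105, again without overlap (exact permutation p = 0.00794 for each pair). *thetaTry* accounted for 4.67% ± 0.420, 2.49% ± 0.194 and 2.15% ± 0.326, and its late L2 and early L3 libraries overlapped (exact permutation p = 0.0952). The 7 members other than *gammaTry* and *deltaTry* took 0.221% ± 0.0120 of the library in early L2 and 0.148% ± 0.00494 in late L2, without overlap (exact permutation p = 0.00794, adjusted p = 0.0119). In early L3 they took 0.148% ± 0.0138. In all, 7 such quantities were each tested over the 3 pairs of stages, and all but the share of the library taken by the 9 members were chosen after the values had been seen.

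**Figure D4:**
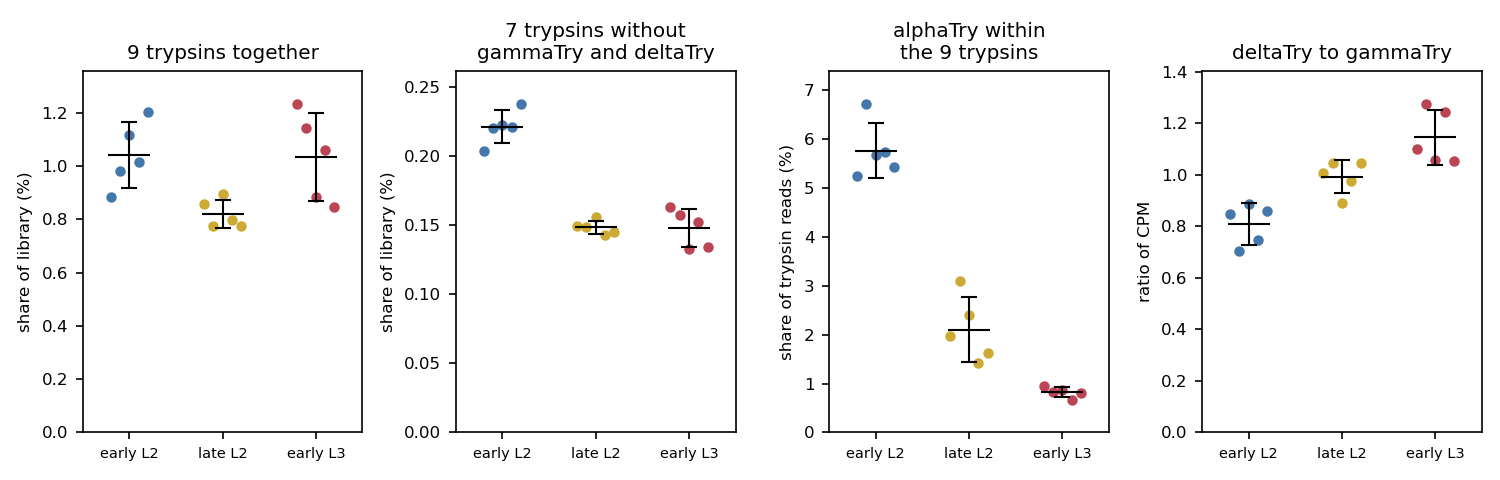
From left to right, by stage: share of the library taken by the 9 measured trypsins and by the 7 without *gammaTry* and *deltaTry* (% of reads), share of *alphaTry* within the 9 trypsins (% of trypsin reads), and ratio of *deltaTry* to *gammaTry* (CPM per CPM). Points are libraries, bars give mean and SD of 5 replicates and all y axes start at 0. The summed share is lowest in late L2 at 0.820%, the share of *alphaTry* steps down at each stage, and the ratio steps up from 0.809 to 1.15.

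Some members moved together between replicates of the same stage. In early L3, replicates 1, 2 and 4 had the 3 highest levels of *betaTry*, *deltaTry*, *thetaTry* and *iotaTry*, and replicates 3 and 5 the lowest. For *gammaTry* the same 3 libraries were the highest as well, whereas *kappaTry*, *zetaTry*, *etaTry* and *alphaTry* were not split in this way. The Jonah protease genes *Jon99Ciii*, *Jon99Cii* and *Jon25Biii* were also highest in replicates 1, 2 and 4. The fat body markers *Lsp1alpha*, *Lsp1beta* and *Lsp2*, storage proteins of the larval hemolymph, were split in the same way, with summed levels of 165, 135 and 103 CPM in replicates 1, 2 and 4 and of 6.36 and 0 CPM in replicates 3 and 5. In late L2 the summed level of these markers was 144 CPM in replicate 4 and at most 11.0 CPM in the others. There *gammaTry*, *deltaTry*, *betaTry*, *thetaTry* and *etaTry* of replicate 4 lay within the range of the other replicates. In the same library *alphaTry* (113 CPM) and *zetaTry* (272 CPM) were the lowest of the stage, and *kappaTry* (327 CPM) and *iotaTry* (109 CPM) the highest. The relation of the fat body markers to the levels of the trypsins was not tested. In early L2, replicates 3 and 5 had the highest levels of *gammaTry*, *deltaTry* and *thetaTry*. The fat body markers cannot tell the early L2 replicates apart, since none of these libraries had more than 0.0417 CPM of them. Whether these markers report attached fat body in the L2 stages was not tested.

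*kappaTry* and *iotaTry* were highest in replicate 4 in early L2 and in late L2, and in replicate 2 in early L3. *etaTry* had the smallest spread in early L3, with a coefficient of variation of 2.85%, against 27.9% for *thetaTry* and 23.9% for *alphaTry*. Every member had at least 1859 reads in every library.

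**Figure D5:**
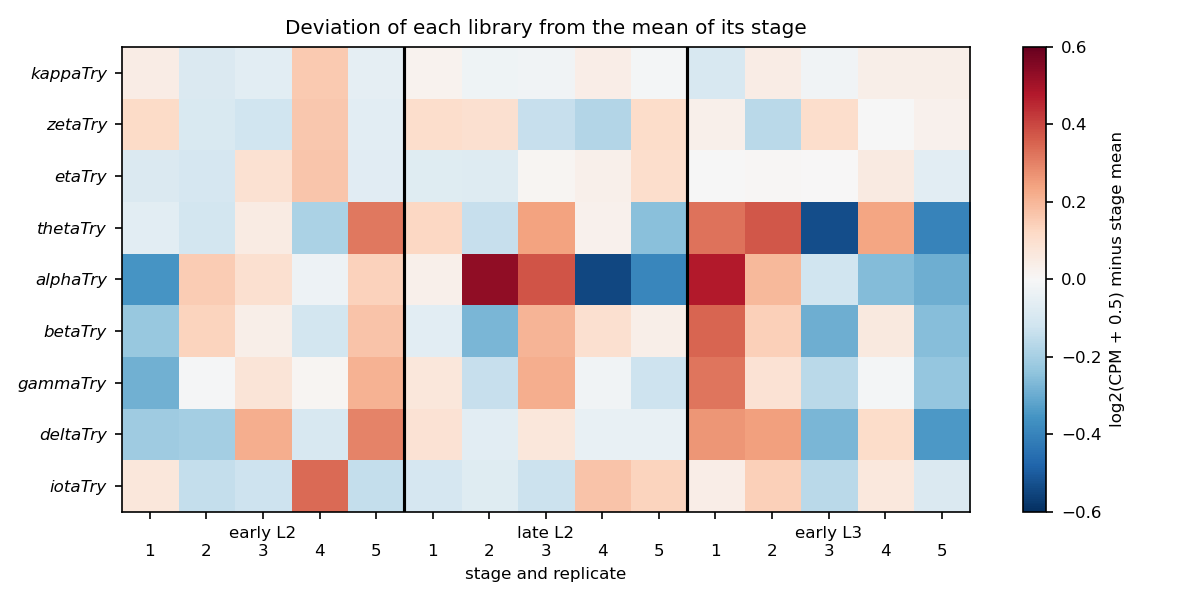
Deviation of each library from the mean of its stage, as log2(CPM + 0.5) (colour), for the 9 measured trypsins in the order of the chromosome (rows) and the 15 libraries by stage and replicate (columns). In early L3, *thetaTry*, *betaTry*, *gammaTry*, *deltaTry* and *iotaTry* are lower in replicates 3 and 5 than in replicates 1, 2 and 4. The widest deviations of *alphaTry* are in late L2, from -0.55 to 0.53.

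Other cell types also differed in their marker levels between the stages. The 5 enteroendocrine markers *pros*, *Tk*, *AstA*, *AstC* and *NPF* had a summed level of 85.0 to 99.5, 56.6 to 75.6 and 49.4 to 57.0 CPM in the order of the stages. The 6 visceral muscle markers were at 3087 to 4579, 2694 to 3220.3 and 2512 to 2950.1 CPM. The 4 tracheal markers were at 47.0 to 98.8, 65.2 to 150.4 and 26.5 to 42.5 CPM. The part of these cells in the trypsin levels was not tested. The copper cell markers *lab* and *Vha100-4* kept to 215 to 255 CPM in all libraries.

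The trypsin genes *CG30031* and *CG30025* lie between *kappaTry* and *iotaTry* but are outside the list. They had at most 68.3 CPM per kb as a stage mean, below each of the 9 members in the same stage. *CG30031* was measured at 55.4 ± 18.5, 45.8 ± 23.3 and 46.7 ± 24.8 CPM in the order of the stages, and its replicates in early L3 ranged from 14.0 to 81.4 CPM. *CG30025* had 1.88, 4.50, 7.92, 0.426 and 1.99 CPM in the early L2 replicates, 0.410, 0, 1.84, 0 and 0.283 CPM in late L2, and 0.858, 0, 0.654, 0.351 and 0.295 CPM in early L3. It fell during L2 on the log2(CPM + 0.5) scale (-1.82, adjusted p = 0.0180), but the stages overlapped, and how reads common to *CG30025*, *gammaTry* and *deltaTry* were divided is uncertain. On the recovered reads the call was lost with edgeR (-2.68, adjusted p = 0.0602) and DESeq2 (-2.71, adjusted p = 0.0837), and over all alternatives the log2 fold change ranged from -2.88 to -0.63. The insertion of the transposable element *INE-1* between *betaTry* and *gammaTry* stayed at or under 0.107 CPM. *CG17571*, another trypsin gene, lies on chromosome 2L and so outside the cluster. It was measured at 345 ± 49.2, 268 ± 40.9 and 349 ± 60.6 CPM, lowest in late L2 as were *gammaTry* and *betaTry*, and its change was more positive in the second interval by 0.74 (adjusted p = 0.0163), a result that was lost without late L2 replicate 2 (0.57, adjusted p = 0.0605).

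The Jonah proteases, chymotrypsin-like enzymes of the fly gut, were counted over 15 members. Between early L2 and early L3, 5 rose and 3 fell, where 9.86% of all entries rose and 24.3% fell, and their median log2 fold change was 0.19, against 0.15 for the 9 trypsins and -0.15 for all entries. The most abundant ones, *Jon99Ciii*, *Jon99Cii* and *Jon25Biii*, had stage means from 8644 to 15978 CPM. Of the trio, *Jon25Biii* rose between early L2 and early L3 (0.52, adjusted p = 0.000256). This call was lost with quantile normalization (0.12, adjusted p = 0.255), and the change came just under the minimum without early L2 replicate 1 or 3 or early L3 replicate 1 or 2 (0.48 to 0.50). Among 13 other measured digestive proteases and peptidases of the study's list, 2 rose and 2 fell in the same comparison, against the same shares of all entries. With TMM, 5 of the 15 Jonah proteases rose and 1 fell, and 3 of the other 13 rose and 1 fell. With quantile normalization these counts were 3 and 4 of the Jonah proteases and 2 and 4 of the others. The shares of all entries that rose or fell with TMM or quantile normalization are not given here, and those above do not apply to these scalings. None of these counts was tested against all entries. The most abundant of the other 13 were *CG17633*, which rose (0.70, adjusted p = 1.28e-05), *CG8774* (0.20, adjusted p = 0.0389) and *CG8562* (0.45, adjusted p = 6.85e-07).

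In the fly midgut, sugar sensing by the transcription factor Mondo with its partner Bigmax, the zinc finger protein Sugarbabe and the Activin-type ligand Dawdle are known to act on digestive enzyme genes in response to dietary sugar. *sug*, which encodes Sugarbabe, had 90.4, 91.2, 78.3, 74.7 and 76.8 CPM in early L2, 42.4, 46.6, 45.6, 24.6 and 35.1 CPM in late L2 and 15.6, 12.3, 14.9, 18.1 and 14.7 CPM in early L3. Its stages did not overlap, and it fell in both intervals (-1.10, adjusted p = 7.71e-05, and -1.31, adjusted p = 2.96e-06). *daw* was at 72.7 ± 10.5, 33.3 ± 4.35 and 40.5 ± 5.47 CPM in the order of the stages and fell during L2 (-1.11, adjusted p = 7.64e-06), and its change was more positive in the second interval by 1.39 (adjusted p = 0.000232). *Mondo* and *bigmax* fell between early L2 and early L3 (-0.77, adjusted p = 5.87e-06, and -0.70, adjusted p = 5.07e-05), although *bigmax* came under the minimum change with quantile normalization (-0.46). The receptor genes *babo* and *put* and the Smad gene *Smox* stayed under the minimum change in all 3 comparisons. Their adjusted p was below 0.05 in some of these, with log2 fold changes of -0.17 for *babo* (adjusted p = 0.00496) and -0.19 for *put* (adjusted p = 0.00157) from late L2 to early L3, -0.23 for *put* between early L2 and early L3 (adjusted p = 0.000245), and -0.16 and -0.14 for *Smox* from early L2 to late L2 and to early L3 (adjusted p = 0.0139 and 0.00957). Apart from that of *Smox* during L2, each of these adjusted p-values rose above 0.05 under at least 1 alternative, reaching 0.653 for *babo*, 0.836 and 0.171 for *put* and 0.868 for *Smox*. Both *sug* and *alphaTry* fell in each interval, and *daw* and *thetaTry* fell in the first. Both *daw* and *thetaTry* also had a more positive change in the second interval (1.39 and 1.35), a call that 6.50% of all entries had. Of all entries, 6.51% fell in the first interval and 18.7% in the second, and the share that fell in both was not counted. The part of these regulators in the trypsin levels was not tested.

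For each member, the 3 entries outside the cluster with the most similar pattern were ranked by Pearson r of log2(CPM + 0.5) over the 15 libraries, among entries with a mean of at least 10 CPM. They are given as a description, over libraries that share their stage. With the stage means taken out, r of the same pairs lay between 0.55 (*thetaTry* with *CAP*) and 0.89 (*gammaTry* with *Nmda1*). *alphaTry* was closest to the kinase gene *Akt* (0.98), to *dlg1*, a scaffold protein of cell junctions (0.98), and to the cystatin gene *Cys* (0.97). The mean of *Cys*, a protease inhibitor, went from 303 to 127 and 78.2 CPM. *Akt* went only from 56.4 to 49.5 and 45.7 CPM, and *dlg1* from 59.3 to 47.0 and 40.7 CPM. A high r thus does not mean a change of similar size. *thetaTry* was closest to *cora*, a septate junction component (0.94), followed by *Rbp9* and *CAP* (0.93 each). *zetaTry* was closest to the ribosomal protein genes *RpL13* (0.96) and *RpS5a* (0.95) and to *CG18585* (0.95), a carboxypeptidase on the list of other digestive proteases.

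*kappaTry* was closest to *CG16749* (0.93), *LManVI* and *LManV* (0.92 each), and *iotaTry* to the amylase gene *Amy-p* (0.92), *CG33306* (0.91) and *LManI* (0.91). The *LMan* genes encode lysosomal alpha-mannosidases, and the mean of *Amy-p*, an enzyme of starch digestion, went from 430.2 to 615 and 1292 CPM. *etaTry* was closest to *CG17834*, *Syn1* and *CG2772* (0.93 each). *gammaTry* was closest to *Nmda1* (0.94), *bchs* (0.93) and *Cdc50* (0.92), *deltaTry* to *snz* (0.91), *TBC1D23* (0.89) and *MFS10* (0.87), and *betaTry* to *Syx1A* (0.89), *Smg6* (0.88) and *Ag5r2* (0.87).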

How the data were processed

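The authors deposited a table of CPM for 12133 entries in 15 midgut libraries. Among the tools listed by the submitters' processing notes are STAR 2.7.10a, Salmon 1.5.2, Trim Galore 0.6.7 and DESeq2, and the build is BDGP6. Which tool counted the reads is not given in the sources used here. A deposited table of the authors' own log2 fold changes and adjusted p-values was not used. Dividing by the value of 1 read returned whole numbers (tolerance 0.001) for 100% of the 166854 non-zero values, and gave 23981806 to 33902298 reads per library. Members were matched by FlyBase identifier, and 12094 entries matched the Ensembl 115 annotation.

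Only entries with 0.5 CPM in 1 or more libraries (9787) were tested. The scale was log2(CPM + 0.5) and the tool limma 3.58.1 (R 4.3.3, intensity trend, 1 fit over 15 libraries), with Benjamini-Hochberg adjustment over all entries. The call thresholds are an adjusted p of 0.05 and a log2 fold change of 0.5 in size. Fold changes on this scale understate those of low entries. Single values per library were compared by 2-sided exact permutation tests, adjusted over 3 pairs of stages. The fit was tested on simulated data. Alternatives were other pseudocounts, filters, scalings, minimum changes, a replicate block, edgeR 4.0.16 and DESeq2 1.42.0 on the recovered reads, and leaving out each library. Fits that left out both early L3 replicate 1 and late L2 replicate 4, that summed *gammaTry* and *deltaTry*, or that rescaled the share were added after seeing the data.

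The members and gene lists were chosen with earlier results of these data known. Named genes were all members, other genes of the cluster, the sugar and Activin regulators, the 3 most abundant proteases of each list, and for each member with a mean of at least 50 CPM the 3 entries of most similar pattern. The Jonah and other protease lists come from the study's own list of digestive enzymes.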

Additional observations from a re-analysis of the deposited data

How the results depend on the processing

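The falls of *alphaTry* and *thetaTry* during L2 and between early L2 and early L3 were called under every alternative run. That of *alphaTry* from late L2 to early L3 was called under every alternative except a minimum log2 fold change of 1. Of 1135 member values under alternatives, 1060 kept direction and call, 68 had another call and 7 had the other direction, none of them called. The 7 were *kappaTry* from late L2 to early L3 with quantile normalization (-0.0020), *gammaTry* between early L2 and early L3 with TMM (0.0157), median-ratio scaling (0.0094), edgeR (0.0176) and DESeq2 (0.0122), and the difference between the changes of *kappaTry* with median-ratio scaling (0.0119) and DESeq2 (0.0167). From late L2 to early L3, TMM, median-ratio scaling, edgeR and DESeq2 each called 3 members instead of 1. The shares of all entries called with these settings are not given here. No minimum change gave 4, 7 and 7 members and 2597, 5288 and 6361 entries over the 3 comparisons (early to late L2, late L2 to early L3, early L2 to early L3). A minimum of 1 gave 0 members for early L3 versus late L2, 1 for the difference between the changes, and 209, 846, 1253 and 856 entries. A pseudocount of 4 gave 506, 1598 and 2220 entries.

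With median-ratio scaling the share of the library rose by 0.313 percentage points from late L2 to early L3 and was 0.102 points higher in early L3 than in early L2. Over the fits that left out a single library, the share changed by -0.260 to -0.180 points from early to late L2, by 0.163 to 0.260 from late L2 to early L3 and by -0.0574 to 0.0387 between early L2 and early L3, and members called numbered 1 to 2 from late L2 to early L3. The ratio of *deltaTry* to *gammaTry* kept its direction and call in all 15 fits of each comparison.

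Correlations of the deviations of same-numbered libraries ranged from -0.182 to 0.205. They were not compared with those of differently numbered libraries, so they cannot settle whether replicate numbers pair the libraries. With a replicate block, 2, 1 and 3 members were called in the 3 comparisons, and 992, 2465 and 3352 entries; for the difference between the changes, *deltaTry* was lost (adjusted p = 0.0968) and *alphaTry* gained (adjusted p = 0.0492). A sum over copies of at least 95% protein identity was not run, because no protein sequences were used here. Depth limits *CG30025*, with 0 to 263 reads per library.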
